A study of Mus musculus with 27 samples.

Results

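Mitochondrial ribosomal protein genes encode the proteins of the ribosome that works inside mitochondria. They were taken as the protein-coding genes of the count table whose symbols begin with Mrpl, for the large subunit, or Mrps, for the small subunit, followed by a number. The rule found 78 genes, 49 of the large and 29 of the small subunit, among the 26802 genes of the table, 15423 of them protein-coding. The rule uses symbol and gene type and no measured value, but it was chosen with earlier results of these data known. Of the 78, 77 had enough counts to be tested among 10493 genes in all, 48 of the large and 29 of the small subunit. Mrpl53, with 2 counts over all 27 libraries, was left out of the tests. The symbols follow history rather than structure in a few cases: the proteins of Mrps30 and Mrps18a sit in the large subunit, and Mrps36 is a component of the alpha-ketoglutarate dehydrogenase complex. They are counted by symbol except where stated.

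RNA was sequenced from T cells of B6 mice in 9 groups of 3 libraries. Rictor KO cells came from mice in which a CD4-cre transgene acts on Rictor fl/fl alleles, and were present as stimulated CD8+ cells. Raptor KO cells came from mice in which CD4-cre acts on Rptor fl/fl alleles, and were present as stimulated and resting cells of the CD8+ and CD4+ subsets. WT B6 cells were present in the same 4 states. Stimulation meant 48 h on plate-bound anti-CD3 and anti-CD28 (10 µg/ml), and rest meant 48 h in IL-7 (5 ng/ml), a cytokine that keeps T cells alive. Lymph node and spleen cells were pooled, enriched magnetically by negative selection, cultured, and sorted to remove dead cells. CD4-cre is active from the thymic stage that carries both CD4 and CD8, so it acts in both subsets. The product of Rptor, Raptor, is needed for the kinase mTOR to work as mTORC1, and Rictor for it to work as mTORC2. Nothing in the labels states that a group's 3 libraries are from different mice, and the p-values therefore reflect the scatter of these libraries, which may be technical.

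The mitochondrial ribosome translates the few messages of the mitochondrial genome, all of them for subunits of the respiratory chain and ATP synthase. Its ribosomal RNAs are transcribed from mitochondrial DNA, whereas all of its proteins are encoded in the nucleus, made in the cytosol and imported. T cells enlarge their mitochondria on activation, and mTORC1 is known to promote the synthesis of mitochondrial proteins.

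Library totals ran from 8640699 to 16817347 counts (median 11985929). Rn45s, the precursor of cytosolic ribosomal RNA, made up 81.1% to 88.4% of them and was left out, which left 1522199 to 2515583 counts (median 1870270). Mitochondrial ribosomal protein genes together held 723 to 5386 counts per library (median 1518), and 1 such gene in 1 library had a median of 21 counts and a range of 0 to 172, so single genes were measured coarsely. Levels are given as CPM, counts per 1000000 of the scaled total over tested genes. Rptor itself had 17.0 to 25.1 CPM in stimulated and 23.5 to 41.9 CPM in resting Raptor KO cells, against 18.4 to 30.5 and 30.98 to 52.6 CPM in WT cells. Rictor had 38.1 to 40.9 CPM in Rictor KO cells and 36.8 to 49.7 CPM in stimulated WT CD8+ cells. A count over a whole gene includes the exons that Cre leaves in place, so these values do not check the labels. All 5 T cell markers were detected in every group (354 to 790 CPM in sum), and the CD8 and CD4 subset markers matched the labels. Exons of 23 of the 78 genes overlap another protein-coding gene, 20 on the opposite and 4 on the same strand; since the strand setting of the counting is not given, their reads may be shared.

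Across the 9 groups the family had a high level in stimulated cells and a low level in resting cells, for both subunits. Large subunit genes summed to 982 ± 41.0 CPM in stimulated Rictor KO CD8+ cells, 771 ± 28.3 CPM in stimulated Raptor KO CD8+ cells and 929 ± 87.7 CPM in stimulated WT CD8+ cells (mean ± SD, n = 3 each, here and below). In stimulated CD4+ cells the sums were 726 ± 79.1 CPM in Raptor KO and 913 ± 51.9 CPM in WT. Resting cells had 469 ± 65.1 CPM in Raptor KO CD8+, 474 ± 19.0 CPM in WT CD8+, 454 ± 8.77 CPM in Raptor KO CD4+ and 444 ± 12.2 CPM in WT CD4+ cells. Each stimulated group lay above every resting library, and the 2 stimulated Raptor KO groups lay below the other 3 stimulated groups.

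Small subunit genes were likewise high in stimulated and low in resting cells. They summed to 466 ± 21.5 CPM in stimulated Rictor KO CD8+, 394 ± 10.6 CPM in stimulated Raptor KO CD8+ and 453 ± 26.8 CPM in stimulated WT CD8+ cells. Stimulated CD4+ cells had 378 ± 30.6 CPM in Raptor KO and 462 ± 35.6 CPM in WT. In resting cells the sums were 259.6 ± 14.7 CPM in Raptor KO CD8+, 258 ± 9.14 CPM in WT CD8+, 248 ± 19.0 CPM in Raptor KO CD4+ and 251 ± 3.73 CPM in WT CD4+ cells. Every stimulated library was again above every resting one, both stimulated Raptor KO groups were below the other 3 stimulated groups, and the 4 resting groups overlapped. In bulk samples such as these, a change in the make-up of the cells and a change in RNA per cell cannot be told apart.

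**Figure D1:**
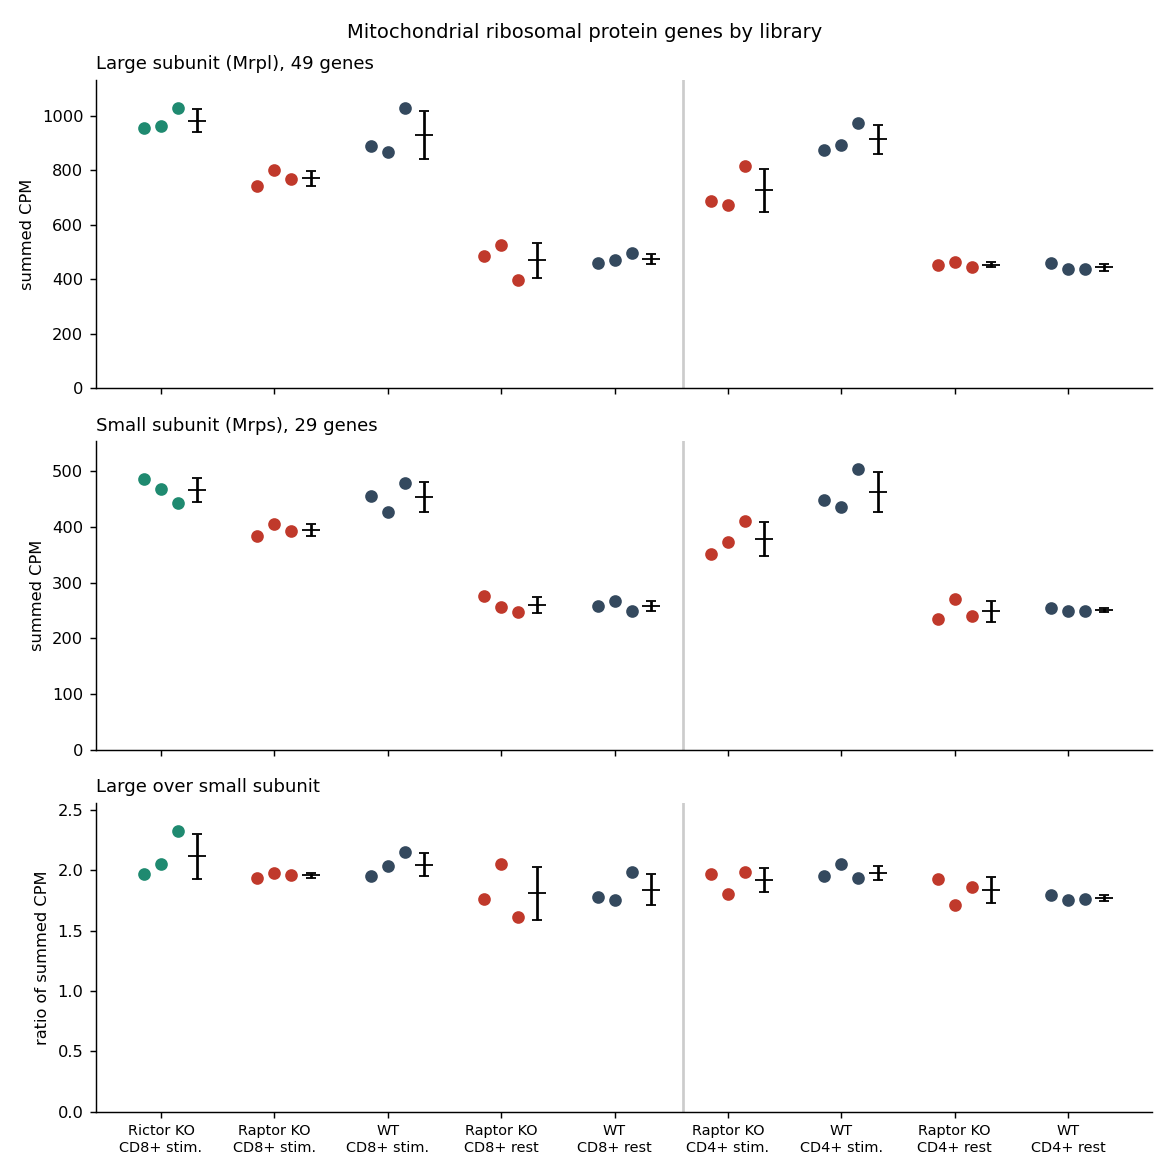
Summed level of the 49 large subunit genes (top, CPM) and 29 small subunit genes (middle, CPM), and the ratio of the sums (bottom), in each library by group, with mean ± SD beside the points. Every stimulated library lies above every resting library in both sums, while the ratio lies near 2.11 in stimulated Rictor KO CD8+ cells and near 1.77 in resting WT CD4+ cells, with overlapping points in most groups.

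Single genes of the family differed widely in level. Averaged over the groups and divided by exon length, large subunit genes had a median of 5.73 CPM per kilobase and a maximum of 13.3, and small subunit genes a median of 4.25 and a maximum of 15.2. The highest level per kilobase belonged to Mrps23, a mitochondria-specific protein of the small subunit, followed by Mrpl18 at 13.3, Mrpl34 at 13.1, Mrpl24 at 12.7 and Mrpl52 at 11.7 CPM per kilobase. Among tested genes the lowest were Mrpl48 at 1.11, Mrps34 at 1.43, Mrps25 at 1.48 and Mrpl23 at 1.75 CPM per kilobase. Exon length covers every annotated exon of a gene, used in these cells or not, so the ranks depend on the annotation. Mrpl48, with 8.152 kilobases, averaged 9.06 CPM, and Mrpl34, with 0.607 kilobases, averaged 7.95 CPM. The genes are spread over 17 chromosomes, with 11 on chromosome 11, 8 on chromosome 17 and 7 on chromosome 6.

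Stimulation against rest compares cells on anti-CD3 and anti-CD28 with cells in IL-7, in the presence and absence of Raptor. Stimulated cells had no IL-7, so effects of the T cell receptor, of CD28 and of IL-7 cannot be told apart. In CD8+ cells, 37 of the 77 tested genes rose with stimulation in Raptor KO cells (27 large, 10 small), where 29.5% of all genes tested rose and 55.6% changed in either direction, and 48 rose in WT cells (33 large, 15 small), where 32% of all genes rose and 62.8% changed. In CD4+ cells, 33 rose in Raptor KO cells (23 large, 10 small), where 27.9% of all genes rose and 52% changed, and 54 rose in WT cells (34 large, 20 small), where 32.4% rose and 64.9% changed. Few fell: 1 gene in Raptor KO CD8+ cells (background 26% of all genes), 1 in WT CD8+ cells (30.8%), 1 in Raptor KO CD4+ cells (24.1%) and 2 in WT CD4+ cells (32.5%), all of the large subunit. Calls are edgeR quasi-likelihood tests with an adjusted p under 0.05 over all 10493 genes. A gene without a call, here and below, may still have changed. Counts were simulated only for stimulated Raptor KO against WT CD4+ cells, where most small changes were missed. The stimulation comparisons were not simulated.

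The median log2 fold change of the 77 genes was 0.73 in Raptor KO CD8+, 1.06 in WT CD8+, 0.71 in Raptor KO CD4+ and 1.13 in WT CD4+ cells. The median over all genes tested was 0.03, 0.00, 0.04 and -0.03 in the same comparisons. By subunit, the medians for large and small subunit genes were 0.82 and 0.57 in Raptor KO CD8+, 1.12 and 0.82 in WT CD8+, 0.71 and 0.71 in Raptor KO CD4+, and 1.16 and 1.08 in WT CD4+ cells. In summed CPM, stimulated over resting cells gave a ratio of 1.64 for the large and 1.52 for the small subunit in Raptor KO CD8+, 1.96 and 1.75 in WT CD8+, 1.60 and 1.52 in Raptor KO CD4+, and 2.05 and 1.84 in WT CD4+ cells. Stimulated and resting libraries did not overlap in any of these sums. The count in Raptor KO CD4+ cells depended on 1 library: without stimulated library 3, 21 genes were called in place of 34. With Rn45s kept in the totals, the median of all genes moved to 0.33 in Raptor KO CD8+, 0.77 in WT CD8+, -0.085 in Raptor KO CD4+ and 0.25 in WT CD4+ cells, and that of the family to 1.01, 1.83, 0.61 and 1.42. Other measures of the libraries moved with stimulation. Protein-coding genes held 42.3 ± 9.07% of counts outside Rn45s in stimulated and 25.6 ± 6.03% in resting Raptor KO CD8+ cells, and 55.1 ± 6.62% in stimulated and 28.1 ± 4.46% in resting WT CD8+ cells. As shares of protein-coding counts the large and small subunit sums still gave ratios of 1.42 and 1.31 in Raptor KO CD8+, 1.82 and 1.63 in WT CD8+, 1.45 and 1.38 in Raptor KO CD4+, and 1.90 and 1.70 in WT CD4+ cells, without overlap. Markers of B cells were lower after stimulation in every group, with 20.9 to 69.0 CPM in sum in stimulated and 91.5 to 134.8 CPM in resting libraries. Summed NK cell markers had 1.67 to 7.32 CPM in stimulated and 4.46 to 29.3 CPM in resting Raptor KO CD8+ cells, and 4.82 to 7.88 CPM in stimulated and 49.4 to 56.0 CPM in resting WT CD8+ cells. In CD4+ cells the highest sum was 9.04 CPM, in a resting WT library. Only 1 of the 3 NK cell markers had enough counts to be tested, so these sums are no measure of NK cells. All 3 were detected in both resting CD8+ groups. Ncr1 was at 0 in stimulated Raptor KO CD8+ cells, and Ncr1 and Klrb1c were at 0 in stimulated WT CD8+ cells. T cell markers summed to 354 to 454 CPM in stimulated and 618 to 790 CPM in resting libraries. Mitochondrial ribosomal RNA held 10.8 to 15.7% of counts outside Rn45s in stimulated and 8.93 to 14.7% in resting Raptor KO CD8+, 7.20 to 10.1% and 13.9 to 15.2% in WT CD8+, 12.7 to 14.6% and 13.9 to 19.5% in Raptor KO CD4+, and 9.16 to 13.0% and 17.8 to 23.0% in WT CD4+ cells. The part of these markers and of the mitochondrial RNA in the result was not tested.

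The overlap between the subsets was near that of all genes. In WT cells 44 genes of the family rose in both, which is 91.7% of the genes raised in CD8+ and 81.5% of those raised in CD4+ cells; over all genes tested these shares were 85.3% and 84.5%. In Raptor KO cells 29 rose in both, 78.4% of the CD8+ list and 87.9% of the CD4+ list, against 78.4% and 83.1% over all genes. Across the 77 genes, the log2 fold changes of WT CD8+ and WT CD4+ cells, which share no libraries, had a Pearson correlation of 0.728 as a description over genes, which are not independent. It was 0.700 between Raptor KO and WT in CD8+ cells and 0.678 in CD4+ cells. In all 4 comparisons, 26 genes rose (33.8%, against 20.2% of all genes), 19 large and 7 small (Mrps2, Mrps6, Mrps7, Mrps14, Mrps22, Mrps23 and Mrps27). In none of the 4 did 13 genes pass the test (16.9%, against 18.6% of all genes), 7 large (Mrpl14, Mrpl27, Mrpl32, Mrpl33, Mrpl48, Mrpl55 and Mrpl57) and 6 small (Mrps5, Mrps24, Mrps30, Mrps33, Mrps34 and Mrps35).

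**Figure D2:**
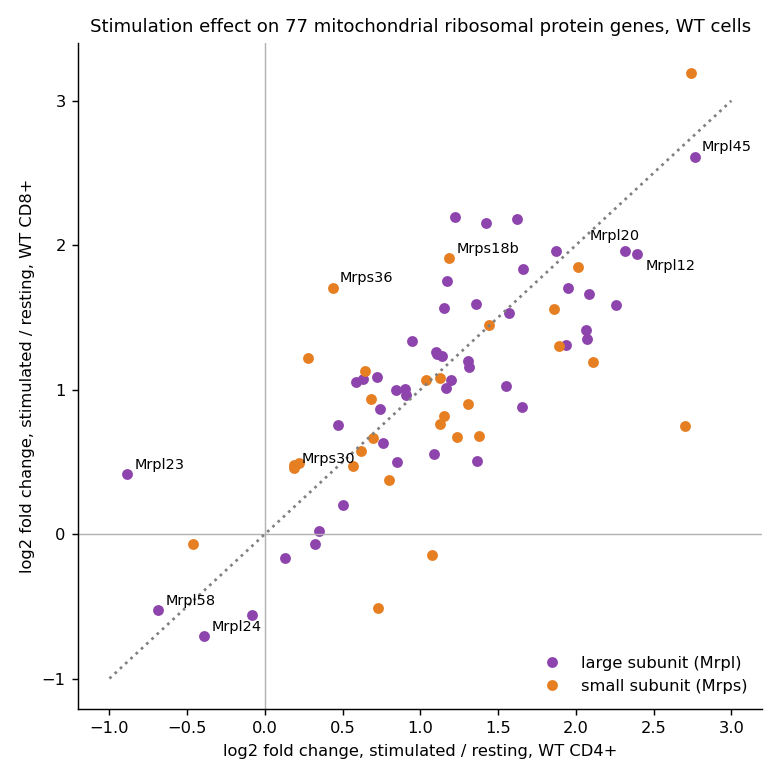
Log2 fold change with stimulation of 77 mitochondrial ribosomal protein genes in WT CD8+ cells (vertical) against WT CD4+ cells (horizontal), with large subunit genes in purple, small subunit genes in orange and equality dotted. Most points lie in the upper right, with Mrps6 highest at 3.19 on the vertical axis, Mrpl45 farthest right at 2.76 on the horizontal axis, and Mrpl58 and Mrpl24 lie below 0 on both axes.

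Mrpl45, whose protein lies at the exit of the large subunit and holds the ribosome to the inner membrane, had the largest change of the genes named by rule in WT cells (chr11:97315716-97329920, + strand, GRCm38). It had 15.1, 18.3 and 31.8 CPM in stimulated and 4.27, 4.05 and 7.13 CPM in resting Raptor KO CD8+ cells. In WT CD8+ cells it had 21.7, 30.5 and 33.9 CPM stimulated and 2.13, 4.11 and 7.32 CPM resting. All stimulated libraries lay above all resting ones in both genotypes. The log2 fold change was 2.18 ± 0.37 (SE; edgeR adjusted p = 3.15e-06) in Raptor KO and 2.61 ± 0.35 (SE; edgeR adjusted p = 2.78e-08) in WT CD8+ cells. In CD4+ cells Mrpl45 had 17.1, 20.7 and 19.4 CPM stimulated and 4.00, 3.21 and 10.2 CPM resting in Raptor KO, and 25.9, 32.1 and 32.5 CPM stimulated and 4.87, 1.94 and 6.16 CPM resting in WT. The groups were again apart, with log2 fold changes of 1.79 ± 0.36 (SE; edgeR adjusted p = 7.14e-05) in Raptor KO and 2.76 ± 0.34 (SE; edgeR adjusted p = 3.56e-09) in WT cells. These calls held without any 1 of the libraries compared.

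Mrpl12 and Mrpl11 belong to the stalk region of the large subunit that recruits translation factors, and Mrpl12 also binds the mitochondrial RNA polymerase. Mrpl12 (chr11:120484613-120489065, + strand) had 10.0, 14.6 and 14.5 CPM in stimulated and 9.15, 6.08 and 4.46 CPM in resting Raptor KO CD8+ cells, and 23.3, 20.9 and 20.9 CPM in stimulated and 4.96, 4.93 and 6.71 CPM in resting WT CD8+ cells. In CD4+ cells it had 15.4, 9.65 and 18.9 CPM stimulated and 9.35, 6.95 and 2.35 CPM resting in Raptor KO, and 18.2, 24.1 and 26.7 CPM stimulated and 2.09, 3.87 and 6.68 CPM resting in WT. No stimulated library overlapped a resting one in these 4 pairs of groups. On the log2 scale the changes were 0.98 ± 0.35 (SE; edgeR adjusted p = 0.0171) in Raptor KO CD8+, 1.94 ± 0.33 (SE; edgeR adjusted p = 3.19e-06) in WT CD8+, 1.22 ± 0.34 (SE; edgeR adjusted p = 0.00298) in Raptor KO CD4+ and 2.39 ± 0.33 (SE; edgeR adjusted p = 5.37e-08) in WT CD4+ cells. The first of these lost its call without resting library 2 or 3 or stimulated library 3, at values of 0.92, 0.85 and 0.91. Mrpl11 rose by 1.41 in Raptor KO CD8+ and 1.96 in WT CD8+ cells on the log2 scale (edgeR adjusted p = 0.000704 and 1.76e-06). In CD4+ cells it rose by 1.74 in Raptor KO and 1.87 in WT (edgeR adjusted p = 1.79e-05 and 7.43e-07).

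Mrpl20, a large subunit protein known from early steps of its assembly (chr4:155802878-155809975, + strand), had 16.7, 21.9 and 23.9 CPM in stimulated and 4.88, 4.73 and 7.13 CPM in resting Raptor KO CD8+ cells. WT CD4+ cells had 33.1, 28.1 and 36.0 CPM stimulated and 7.65, 5.16 and 6.68 CPM resting. The groups were apart in both pairs. Fold changes on the log2 scale were 1.96 ± 0.33 (SE; edgeR adjusted p = 2.74e-06) in Raptor KO CD8+ and 2.32 ± 0.28 (SE; edgeR adjusted p = 2.6e-09) in WT CD4+ cells. Mrpl52, another large subunit protein (chr14:54426909-54429756, + strand), had 19.4, 19.3 and 25.0 CPM in stimulated and 2.67, 5.88 and 6.25 CPM in resting Raptor KO CD4+ cells. In WT CD4+ cells it had 20.8, 20.1 and 18.7 CPM stimulated and 4.17, 5.81 and 4.11 CPM resting. It was the gene named by rule that rose most in Raptor KO CD4+ cells, and its stimulated libraries overlapped between the genotypes. The log2 fold changes were 2.10 ± 0.31 (SE; edgeR adjusted p = 3.71e-07) in Raptor KO and 2.06 ± 0.31 (SE; edgeR adjusted p = 2.29e-07) in WT CD4+ cells.

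Mrpl35 and Mrpl2, which belongs to the core of the large subunit, stood out in WT CD8+ cells. Mrpl35 (chr6:71812997-71826969, - strand) had 13.4, 14.1 and 22.7 CPM in stimulated and 7.93, 8.78 and 3.56 CPM in resting Raptor KO CD8+ cells, and 24.0, 23.0 and 32.2 CPM in stimulated and 7.09, 4.93 and 5.49 CPM in resting WT CD8+ cells. Both pairs were apart, with the WT stimulated libraries the highest. Its log2 fold changes were 1.30 ± 0.34 (SE; edgeR adjusted p = 0.00137) in Raptor KO and 2.18 ± 0.33 (SE; edgeR adjusted p = 2.36e-07) in WT CD8+ cells. Mrpl2 changed by 0.84 ± 0.31 (SE; edgeR adjusted p = 0.0219) in Raptor KO and 2.15 ± 0.33 (SE; edgeR adjusted p = 3.57e-07) in WT CD8+ cells. Mrpl3, which lies near the peptidyl transferase centre, rose in all 4 comparisons, by 0.80 in Raptor KO CD8+, 1.01 in WT CD8+, 1.13 in Raptor KO CD4+ and 0.90 in WT CD4+ cells on the log2 scale (edgeR adjusted p = 0.00545, 0.000353, 0.00018 and 0.000613).

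A few large subunit genes went the other way. Mrpl58, known as Ict1, is a peptidyl-tRNA hydrolase built into the large subunit that can free stalled ribosomes (chr11:115403752-115412674, + strand). It had 4.18, 6.79 and 10.2 CPM in stimulated and 21.4, 22.3 and 18.7 CPM in resting Raptor KO CD8+ cells, and 8.28, 12.8 and 12.2 CPM in stimulated and 19.9, 14.8 and 13.4 CPM in resting WT CD8+ cells. Among CD4+ cells it had 11.4, 8.96 and 10.4 CPM stimulated and 17.4, 19.2 and 18.0 CPM resting in Raptor KO, and 8.43, 8.47 and 10.2 CPM stimulated and 15.3, 14.8 and 14.4 CPM resting in WT. Every stimulated library was lower than every resting library in the same genotype and subset. These gave log2 fold changes of -1.46 ± 0.29 (SE; edgeR adjusted p = 3.85e-05) in Raptor KO CD8+, -0.53 ± 0.27 (SE; edgeR adjusted p = 0.0847) in WT CD8+, -0.82 ± 0.28 (SE; edgeR adjusted p = 0.0124) in Raptor KO CD4+ and -0.69 ± 0.28 (SE; edgeR adjusted p = 0.028) in WT CD4+ cells, so that 3 of 4 passed the test. The call in WT CD4+ cells was lost without resting library 1, 2 or 3 or stimulated library 1 or 2, with values of -0.70 to -0.62.

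Mrpl24, at the polypeptide exit tunnel, has exons that overlap Rrnad1 on the opposite strand. It had 25.2, 25.2 and 24.6 CPM in stimulated and 36.2, 45.2 and 41.5 CPM in resting WT CD8+ cells, with no overlap. Its log2 fold change was -0.71 ± 0.18 (SE; edgeR adjusted p = 0.000572) there, and -0.32, -0.25 and -0.39 in Raptor KO CD8+, Raptor KO CD4+ and WT CD4+ cells, where it did not pass the test. With Rn45s kept in the library totals the value in WT CD8+ cells turned to 0.06 (edgeR adjusted p = 0.91). Mrpl23, also at the exit tunnel, had 10.4, 3.56 and 4.95 CPM in stimulated and 9.04, 11.6 and 11.8 CPM in resting WT CD4+ cells. The groups overlapped at 1 stimulated library, and the change of -0.89 ± 0.35 (SE; edgeR adjusted p = 0.0235) lost its call without resting library 2 or 3 or stimulated library 2 or 3, at values of -0.83, -0.81, -0.62 and -0.72.

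Among small subunit genes, Mrps2 rose in all 4 comparisons, by 1.14 in Raptor KO CD8+, 1.08 in WT CD8+, 0.78 in Raptor KO CD4+ and 1.13 in WT CD4+ cells on the log2 scale (edgeR adjusted p = 0.000606, 0.000717, 0.0117 and 0.000221). The call in Raptor KO CD4+ cells was lost without resting library 3 (0.53) or stimulated library 3 (0.68). Mrps12, which governs decoding accuracy, passed the test in WT CD4+ cells alone among the 4, at 1.12 ± 0.39 (SE; edgeR adjusted p = 0.0108), with 0.59, 0.76 and 0.84 in Raptor KO CD8+, WT CD8+ and Raptor KO CD4+ cells. In WT CD8+ cells it passed without resting library 2, at 1.22. Mrps15 rose by 0.90 in Raptor KO CD8+ and 1.38 in WT CD4+ cells (edgeR adjusted p = 0.0297 and 0.000583). The call of Mrps15 in Raptor KO CD8+ cells was lost without resting library 1 (0.84) or 2 (0.79) or stimulated library 2 (0.90) or 3 (0.91), and in WT CD8+ cells it passed without resting library 2 (1.08) or stimulated library 3 (0.79).

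In 3 of the 4 comparisons the largest increase was that of Mrps6, a small subunit protein, which lay outside the naming rule because it averaged under 10 CPM and is given after its values were seen. It had 12.6, 11.0 and 16.9 CPM in stimulated and 2.44, 2.03 and 1.78 CPM in resting Raptor KO CD8+ cells, and 11.0, 13.4 and 15.6 CPM in stimulated and 1.42, 2.46 and 0.610 CPM in resting WT CD8+ cells. In CD4+ cells it had 15.9, 16.5 and 18.9 CPM stimulated and 0, 2.14 and 0 CPM resting in Raptor KO, and 14.9, 9.80 and 16.5 CPM stimulated and 1.39, 2.58 and 2.05 CPM resting in WT. All stimulated libraries were above all resting ones, with 0 counts in 2 resting Raptor KO CD4+ libraries. The log2 fold changes were 2.66 ± 0.45 (SE; edgeR adjusted p = 2.77e-06) in Raptor KO CD8+, 3.19 ± 0.47 (SE; edgeR adjusted p = 2.03e-07) in WT CD8+, 4.24 ± 0.50 (SE; edgeR adjusted p = 2.45e-09) in Raptor KO CD4+ and 2.74 ± 0.42 (SE; edgeR adjusted p = 3.93e-07) in WT CD4+ cells. Its exons overlap those of the myo-inositol transporter gene Slc5a3 on the same strand, so reads of the 2 genes may be shared.

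The genes Mrps18a, Mrps18b and Mrps18c are paralogs that descend from bacterial S18. Mrps18b had 15.1, 10.4 and 13.3 CPM in stimulated and 14.0, 6.76 and 7.13 CPM in resting Raptor KO CD8+ cells, against 24.0, 12.8 and 22.9 CPM stimulated and 4.96, 4.93 and 6.10 CPM resting in WT CD8+ cells. Stimulated and resting libraries overlapped in Raptor KO and were apart in WT. This amounted to log2 fold changes of 0.42 ± 0.32 (SE; edgeR adjusted p = 0.27) in Raptor KO and 1.91 ± 0.32 (SE; edgeR adjusted p = 2.47e-06) in WT CD8+ cells, and 0.21 ± 0.32 (SE; edgeR adjusted p = 0.61) in Raptor KO and 1.18 ± 0.30 (SE; edgeR adjusted p = 0.000612) in WT CD4+ cells. The difference of the Raptor KO and WT effects was -1.49 ± 0.47 (SE; edgeR adjusted p = 0.0711) in CD8+ cells and missed the threshold; it passed with the library code as a term (edgeR adjusted p = 0.0405) and without stimulated WT library 2 (-1.69, edgeR adjusted p = 0.0298). Without resting Raptor KO library 1 the change of Mrps18b in Raptor KO CD8+ cells passed, at 0.89. Mrps18c rose in Raptor KO CD8+ cells by 2.25 ± 0.57 (SE; edgeR adjusted p = 0.000848) and in WT CD4+ cells by 1.31 ± 0.52 (SE; edgeR adjusted p = 0.0251), the second lost without resting library 1 (0.97) or 2 (1.30) or stimulated library 3 (1.04). Mrps18a, whose protein is in the large subunit, rose by 0.67 ± 0.25 (SE; edgeR adjusted p = 0.0212) in WT CD8+ and 0.69 ± 0.25 (SE; edgeR adjusted p = 0.014) in WT CD4+ cells. Without resting library 3 or stimulated library 1 the first was 0.49 and 0.60, and without resting library 3 or stimulated library 3 the second to 0.66 and 0.44, none of them called.

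Of the other genes whose symbols depart from structure, Mrps30 passed the test in none of the 4 comparisons, at 0.36 in Raptor KO CD8+, 0.46 in WT CD8+, 0.06 in Raptor KO CD4+ and 0.19 in WT CD4+ cells. In WT CD8+ cells it passed without stimulated library 2, at 0.63. Mrps36 had 153 counts in all and passed in WT CD8+ cells, with 4.73, 2.68 and 4.24 CPM stimulated and 2.13, 0.821 and 0.610 CPM resting. These groups were apart at very low levels, and the change of 1.71 ± 0.74 (SE; edgeR adjusted p = 0.0426) lost its call without resting library 2 (1.56) or 3 (1.37) or stimulated library 1 (1.57) or 3 (1.65).

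For each gene, the response to stimulation in Raptor KO cells was tested against that in WT cells. In CD4+ cells 1 of 77 genes, Mrps23, had a smaller stimulation effect in Raptor KO, and none a larger one, where 2.25% and 3.57% of all genes did and 5.82% differed in either direction. In CD8+ cells none passed, against 2.89% of all genes (1.7% with a larger and 1.19% with a smaller effect in Raptor KO), with 8 at an unadjusted p under 0.05, no gene with DESeq2 and none with limma-voom. The median difference over the 77 genes was -0.27 in CD8+ and -0.35 in CD4+ cells on the log2 scale. Mrps23 rose by 0.71 in Raptor KO and 1.86 in WT CD4+ cells (edgeR adjusted p = 0.00865 and 2.55e-10), a difference of -1.15 ± 0.32 (SE; edgeR adjusted p = 0.022). It was lost without resting Raptor KO library 2 (-1.02), stimulated Raptor KO library 2 (-1.01), resting WT library 3 (-1.10) or stimulated WT library 3 (-1.02). The count of 1 became 0 without resting or stimulated WT library 3, and 2 without resting Raptor KO library 1, 2 or 3, resting WT library 1 or stimulated WT library 1. Without resting Raptor KO library 2, 1 small subunit gene had a larger and 1 large subunit gene a smaller effect in Raptor KO, neither of them Mrps23. The CD8+ count of 0 became 1 without stimulated Raptor KO library 2 or stimulated WT library 2.

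Raptor KO was then compared with WT in stimulated cells. Since CD4-cre acts from the thymus on, effects of Raptor loss before and after activation cannot be told apart in this comparison. With edgeR none of the 77 genes was higher, 5 were lower in CD8+ cells (all large subunit) and 9 were lower in CD4+ cells (7 large, 2 small). Among all genes tested, 6.3% were higher and 5.42% lower in Raptor KO CD8+ cells (11.7% in all), and 8.82% higher and 8.56% lower in Raptor KO CD4+ cells (17.4% in all). The share called lower, 6.49% in CD8+ and 11.7% in CD4+ cells, was thus close to that of all genes. None was called higher by edgeR or DESeq2, while limma-voom called Mrpl23 higher in CD4+ cells, at 0.94 on the log2 scale (adjusted p = 0.0377), where edgeR gave 0.79 (adjusted p = 0.111). The median log2 fold change of the 77 genes was -0.28 in CD8+ cells (large -0.34, small -0.18) and -0.29 in CD4+ cells (large -0.31, small -0.28), with 0.03 and 0.04 over all genes.

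The shift was small per gene and spread over the family. The mean over libraries was lower in Raptor KO for 58 of 77 genes in CD8+ cells (75.3%, all genes 47.5%) and for 64 of 77 in CD4+ cells (83.1%, all genes 47.3%). In CD8+ cells 22 genes had every Raptor KO library below every WT library and 3 had every one above, 28.6% and 3.90% of the family, where 14.3% and 15.5% of all genes did. In CD4+ cells 19 were apart and lower, 24.7% of the family, and none was apart and higher, where 16.3% and 17.1% of all genes did. Summed CPM in Raptor KO over WT was 0.830 for the large and 0.869 for the small subunit in CD8+ cells, and 0.796 and 0.818 in CD4+ cells, with no overlap of libraries in the 4 sums. As a share of protein-coding counts the ratios were 0.801 and 0.838 in CD8+ cells and 0.796 and 0.818 in CD4+ cells, again without overlap.

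**Figure D3:**
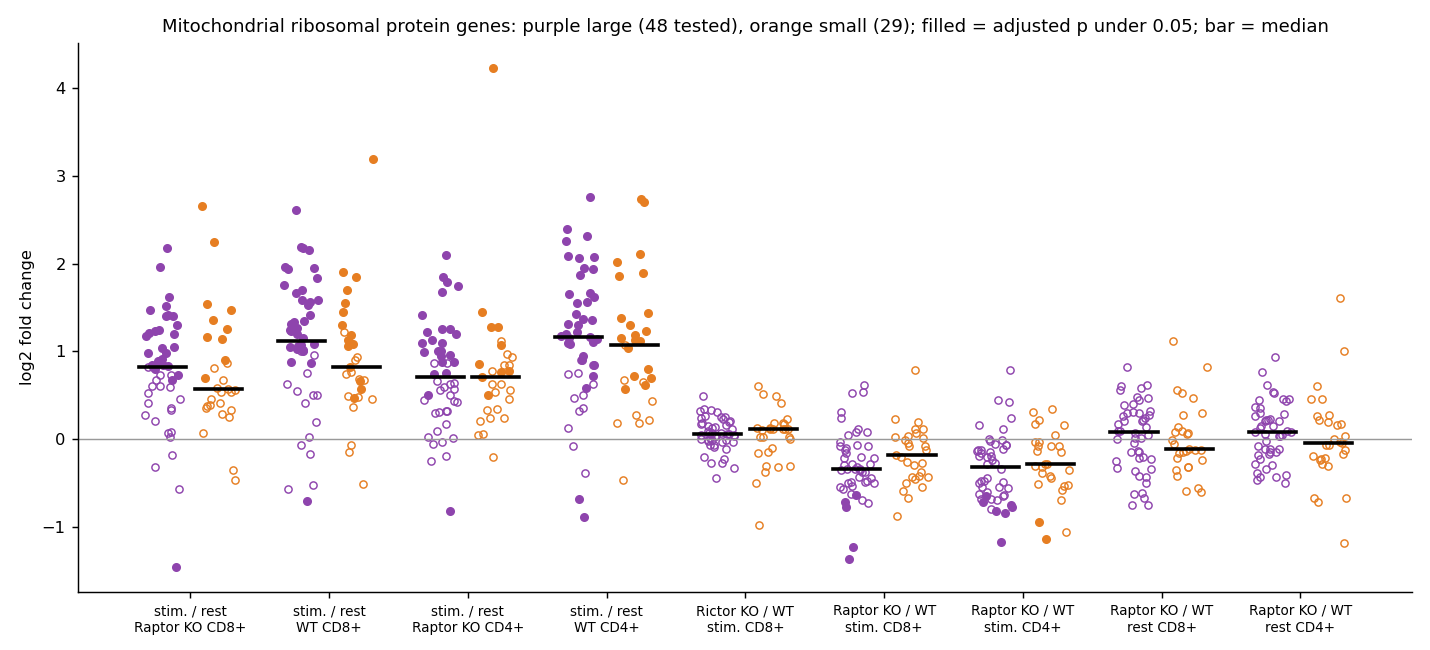
Log2 fold change of each tested large (purple, 48) and small (orange, 29) subunit gene in 9 comparisons, filled where the edgeR adjusted p was under 0.05, with the median as a bar. The 4 stimulation comparisons have medians of 0.57 to 1.16, the 2 comparisons of stimulated Raptor KO with WT cells have medians of -0.34 to -0.18, and no point is filled for Rictor KO or for resting Raptor KO cells.

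Other properties of the libraries moved with genotype. Protein-coding genes held 42.3 ± 9.07% of the counts outside Rn45s in stimulated Raptor KO CD8+ cells and 55.1 ± 6.62% in WT, without overlap, and 39.8 ± 6.53% and 52.7 ± 12.6% in CD4+ cells, with overlap. The 2 mitochondrial ribosomal RNAs held 13.5 ± 2.50% in Raptor KO and 9.11 ± 1.66% in WT stimulated CD8+ cells, without overlap, and 13.6 ± 0.946% and 10.5 ± 2.13% in CD4+ cells, with overlap. Of 8 myeloid markers, 6 were detected in Raptor KO CD8+ (Itgam and Cd14 at 0; 61.7 to 68.6 CPM in sum) and 6 in WT CD8+ cells (Lyz2 and Itgam at 0; 44.5 to 58.0 CPM). In CD4+ cells 5 were detected in Raptor KO (Itgam, Cd14 and Adgre1 at 0; 41.6 to 50.5 CPM) and 5 in WT (Lyz2, Itgam and Adgre1 at 0; 21.4 to 28.1 CPM). The part of these properties in the result was not tested, except that in a fit to protein-coding genes alone 8 of 74 genes were lower in CD8+ and 13 in CD4+ cells. Of all genes, that fit called 1262 in CD8+ cells, 560 of them higher, and 1809 in CD4+ cells, 808 of them higher. The number of genes it tested is not given here, so no share of all genes stands beside the 8 and 13. With Rn45s kept in the totals the median of all genes moved to -0.49 in CD8+ and -0.46 in CD4+ cells and that of the family to -0.81 and -0.82, and 3 and 7 genes were called, all lower. Most calls over all genes were also lower under that scaling, with 55 of 459 higher in CD8+ and 67 of 684 in CD4+ cells.

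The promoters of 3 genes that were lower in stimulated Raptor KO CD4+ cells are shown because they are the called genes with the lowest fold changes whose windows hold one of the motifs searched, and so show where those motifs stand. Each window runs from 250 bases before to 50 bases after the RefSeq transcription start (RefSeq, GRCm38.p6), is written 5′ to 3′ along the gene, and has motif matches in capitals: CCGGAAG of ETS factors, which on the reverse strand reads as CTTCCGG, and AAGATGGC of YY1. The Mrps27 window lies at chr13:99344536-99344835 (+ strand), that of Mrps23 at chr11:88204138-88204437 (+ strand) and that of Mrpl35 at chr6:71823735-71824034 (- strand).
Mrps27: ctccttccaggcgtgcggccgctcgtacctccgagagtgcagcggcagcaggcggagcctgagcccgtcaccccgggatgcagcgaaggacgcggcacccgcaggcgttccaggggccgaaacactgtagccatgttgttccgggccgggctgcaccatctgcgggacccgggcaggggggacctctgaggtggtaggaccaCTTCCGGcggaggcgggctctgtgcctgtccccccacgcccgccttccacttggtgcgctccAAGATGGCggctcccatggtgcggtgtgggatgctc
Mrps23: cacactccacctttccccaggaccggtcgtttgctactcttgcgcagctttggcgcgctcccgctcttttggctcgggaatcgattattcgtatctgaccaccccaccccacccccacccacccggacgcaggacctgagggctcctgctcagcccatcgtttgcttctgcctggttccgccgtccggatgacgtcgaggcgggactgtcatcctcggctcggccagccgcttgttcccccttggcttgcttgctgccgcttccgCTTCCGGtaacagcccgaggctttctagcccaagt
Mrpl35: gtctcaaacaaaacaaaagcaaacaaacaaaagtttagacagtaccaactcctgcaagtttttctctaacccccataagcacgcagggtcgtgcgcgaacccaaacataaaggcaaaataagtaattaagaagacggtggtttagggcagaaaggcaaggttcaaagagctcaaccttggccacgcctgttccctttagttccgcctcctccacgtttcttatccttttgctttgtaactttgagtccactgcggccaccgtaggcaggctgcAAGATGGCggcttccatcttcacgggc
In Mrps27 the ETS match starts 48 bases before and the YY1 match 15 bases after the start, in Mrps23 the ETS match starts 16 bases after it, and in Mrpl35 the YY1 match starts 24 bases after it.

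Mrps23, the small subunit gene with the highest level per kilobase, had the lowest adjusted p of the family in stimulated Raptor KO against WT CD4+ cells (chr11:88204388-88211507, + strand). It had 27.6, 28.8 and 25.5 CPM in Raptor KO and 39.0, 30.5 and 39.6 CPM in WT stimulated CD8+ cells. In stimulated CD4+ cells it had 23.4, 15.8 and 24.1 CPM in Raptor KO and 36.3, 38.8 and 47.3 CPM in WT. All Raptor KO libraries were below all WT libraries in both subsets. The log2 fold change was -0.43 ± 0.18 (SE; edgeR adjusted p = 0.106) in CD8+ cells, which missed the threshold, and -0.95 ± 0.18 (SE; edgeR adjusted p = 0.000255) in CD4+ cells. The CD4+ call held without any 1 library.

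Mrps27, a pentatricopeptide repeat protein of the small subunit (chr13:99344786-99415562, + strand), had 15.9, 14.6 and 11.8 CPM in Raptor KO and 13.8, 16.1 and 19.5 CPM in WT stimulated CD8+ cells, with overlap. Among CD4+ cells it had 3.99, 8.27 and 11.3 CPM in Raptor KO and 18.2, 16.9 and 17.9 CPM in WT. The 3 WT CD4+ libraries were close together and all above the Raptor KO libraries, of which library 1 was the lowest. Changes in log2 units were -0.26 ± 0.31 (SE; edgeR adjusted p = 0.634) in CD8+ and -1.14 ± 0.33 (SE; edgeR adjusted p = 0.0148) in CD4+ cells. Without Raptor KO CD4+ library 1 the value was -0.82 and the edgeR adjusted p = 0.132.

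Mrpl46 and Mrpl38 are proteins of the central protuberance that have no bacterial counterpart. Mrpl46 (chr7:78775236-78783531, - strand) has exons that overlap Mrps11 on the opposite strand. It had 15.1, 12.0 and 10.6 CPM in Raptor KO and 15.4, 11.2 and 19.8 CPM in WT stimulated CD8+ cells, and 5.70, 9.65 and 8.03 CPM in Raptor KO and 20.1, 15.2 and 17.6 CPM in WT stimulated CD4+ cells. The groups overlapped in CD8+ and were apart in CD4+ cells, with log2 fold changes of -0.37 ± 0.31 (SE; edgeR adjusted p = 0.473) and -1.17 ± 0.33 (SE; edgeR adjusted p = 0.011). Without Raptor KO CD4+ library 1 the second missed the threshold (edgeR adjusted p = 0.0768). Mrps11 itself was at -1.06 (edgeR adjusted p = 0.0976) in CD4+ cells.

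Mrpl38 (chr11:116131817-116138868, - strand) had 18.4, 20.9 and 14.5 CPM in Raptor KO and 30.4, 24.6 and 34.8 CPM in WT stimulated CD8+ cells. In CD4+ cells it had 15.4, 16.5 and 13.7 CPM in Raptor KO and 22.1, 24.5 and 29.4 CPM in WT. Both subsets were apart and lower in Raptor KO. The log2 fold changes were -0.78 ± 0.23 (SE; edgeR adjusted p = 0.0217) in CD8+ and -0.77 ± 0.25 (SE; edgeR adjusted p = 0.0246) in CD4+ cells. The CD8+ call was lost without Raptor KO library 3 (-0.62), WT library 1 (-0.78) or WT library 3 (-0.65).

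Mrpl4, Mrpl22 and Mrpl34 include 2 proteins of the exit tunnel, Mrpl4 and Mrpl22. Mrpl4 (chr9:21002738-21008839, + strand) had 10.9, 17.2 and 14.5 CPM in Raptor KO and 20.5, 23.6 and 24.0 CPM in WT stimulated CD8+ cells, and 15.4, 10.3 and 10.9 CPM in Raptor KO and 20.8, 23.6 and 20.4 CPM in WT stimulated CD4+ cells. It was apart and lower in both subsets, at -0.64 ± 0.22 (SE; edgeR adjusted p = 0.0499) in CD8+ and -0.82 ± 0.23 (SE; edgeR adjusted p = 0.0117) in CD4+ cells. Mrpl22 (chr11:58171661-58179565, + strand), outside the naming rule for its low level, had 5.02, 5.23 and 4.31 CPM in Raptor KO and 12.2, 13.4 and 11.9 CPM in WT stimulated CD8+ cells. The Raptor KO libraries were all well below the WT libraries, and the log2 fold change was -1.36 ± 0.35 (SE; edgeR adjusted p = 0.00754), the lowest in CD8+ cells. In CD4+ cells it was -0.69 ± 0.35 (SE; edgeR adjusted p = 0.167).

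Mrpl34, a short large subunit protein (chr8:71464959-71465747, + strand), had 10.0, 5.23 and 4.31 CPM in Raptor KO and 13.8, 10.2 and 17.5 CPM in WT stimulated CD8+ cells. The highest Raptor KO library was just below the lowest WT library. On the log2 scale the changes were -1.22 ± 0.34 (SE; edgeR adjusted p = 0.013) in CD8+ and -0.56 ± 0.33 (SE; edgeR adjusted p = 0.252) in CD4+ cells. The CD8+ call was lost without Raptor KO library 2, Raptor KO library 3 or WT library 3 (edgeR adjusted p = 0.0628, 0.126 and 0.113). Mrpl1, of the mobile L1 stalk, had 17.6, 14.6 and 11.8 CPM in Raptor KO and 19.3, 17.7 and 31.1 CPM in WT stimulated CD8+ cells. The highest Raptor KO library was again just below the lowest WT library, and the change of -0.71 ± 0.24 (SE; edgeR adjusted p = 0.0423) was lost without Raptor KO library 2 (-0.74), Raptor KO library 3 (-0.56) or WT library 3 (-0.38).

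The other genes lower in CD4+ cells were Mrpl35, Mrpl20, Mrpl40 and Mrpl9. Mrpl35 had 7.97, 17.2 and 14.2 CPM in Raptor KO and 15.6, 24.1 and 28.1 CPM in WT stimulated CD4+ cells, with overlap, at -0.84 ± 0.27 (SE; edgeR adjusted p = 0.0273). Mrpl20 had 13.7, 21.4 and 22.7 CPM in Raptor KO and 33.1, 28.1 and 36.0 CPM in WT, apart, at -0.75 ± 0.23 (SE; edgeR adjusted p = 0.019). Mrpl40, a central protuberance protein, had 9.68, 15.2 and 10.9 CPM in Raptor KO and 23.4, 18.3 and 17.6 CPM in WT, apart, at -0.72 ± 0.24 (SE; edgeR adjusted p = 0.0311). Mrpl9 had 14.8, 19.3 and 27.9 CPM in Raptor KO and 32.4, 31.2 and 35.0 CPM in WT, also apart, at -0.65 ± 0.21 (SE; edgeR adjusted p = 0.0287). Its exons overlap Oaz3 on the opposite strand.

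Mrpl38 and Mrpl4 were lower in both subsets, 40% of the CD8+ list and 22.2% of the CD4+ list, from comparisons that share no libraries. Over all genes called lower, 56.9% of the CD8+ list and 36.1% of the CD4+ list were shared. Whether the effect of Raptor KO differs between the subsets was not tested. The counts rested on single libraries: the 5 in CD8+ cells became 3 without Raptor KO library 2, 2 without Raptor KO library 3, 3 without WT library 1 and 1 without WT library 3. The 9 in CD4+ cells became 2 without Raptor KO library 1 and 5 without WT library 3. At an unadjusted p under 0.05 there were 18 genes of the family in CD8+ and 21 of 77 in CD4+ cells. In CD4+ cells 3204 of all 10493 genes tested were at that level, a share no lower than that of the family. For CD8+ cells the share over all genes is not given here, so the 18 are not read as a result about the family. Some genes that rose with stimulation in all 4 comparisons did not pass the test between genotypes, among them Mrpl52 (0.52 in CD8+ and 0.12 in CD4+ cells), Mrpl3 (-0.08 and -0.16) and Mrps6 (0.03 and 0.31). Mrpl12 had -0.69 (edgeR adjusted p = 0.0885) in CD8+ and -0.64 (edgeR adjusted p = 0.086) in CD4+ cells, where it passed without Raptor KO library 3 (-0.89) or WT library 1 (-0.80).

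**Figure D4:**
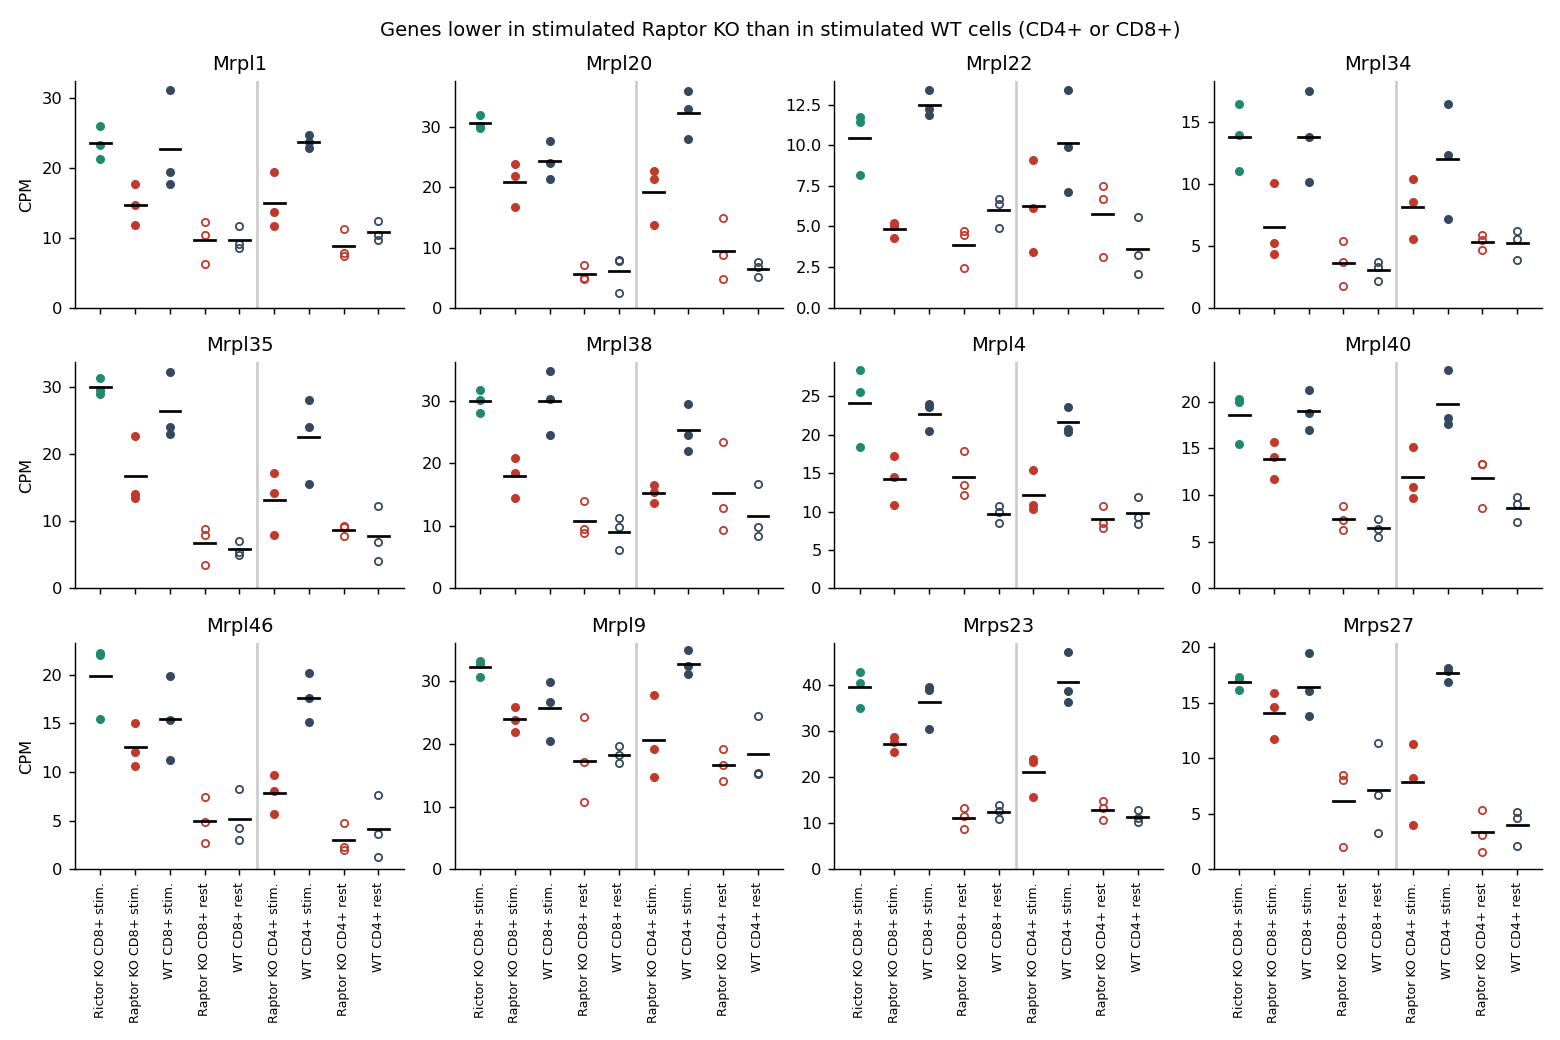
Level (CPM) in every library of the 12 genes lower in stimulated Raptor KO than in WT cells of either subset, with stimulated libraries filled, resting libraries open, group means as bars and colours for Rictor KO (green), Raptor KO (red) and WT (blue). Stimulated Raptor KO libraries of Mrps23 lie below all stimulated WT libraries in both subsets, and resting Raptor KO and WT libraries overlap for this gene.

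In resting cells no gene of the family passed the test between Raptor KO and WT. In CD8+ cells 1.12% of all genes passed (0.505% higher and 0.619% lower in Raptor KO), and in CD4+ cells 0.143% (0.0953% higher and 0.0477% lower). With edgeR, 3 of 77 had an unadjusted p under 0.05 in CD8+ and 3 in CD4+ cells, and DESeq2 and limma-voom called 0. Summed CPM in Raptor KO over WT was 0.989 for the large and 1.00 for the small subunit in CD8+ cells, and 1.02 and 0.989 in CD4+ cells, with overlap of libraries throughout. In CD8+ cells 4 genes were apart and higher and 4 apart and lower, 5.19% of the family each way, where 6.87% and 7.34% of all genes were. In CD4+ cells 5 were apart and higher and 4 lower, 6.49% and 5.19%, where 5.33% and 6.94% of all genes were.

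Loss of Rictor left no called difference in the family. None of 77 genes passed the test between stimulated Rictor KO and WT CD8+ cells, where 0.162% of all genes did (0.105% higher and 0.0572% lower in Rictor KO). At an unadjusted p under 0.05 there was 1 gene, and DESeq2 and limma-voom called 0. The median log2 fold change was 0.07. Summed CPM in Rictor KO over WT was 1.06 for the large and 1.03 for the small subunit, with overlap. In this comparison 6 genes were apart and higher and 4 apart and lower, 7.79% and 5.19% of the family, where 6.6% and 6.9% of all genes were. The Rictor KO libraries all carry the library code StP219 and the WT libraries differ in code, so code and genotype are in part confounded. With the code as a term in the fit, 0 genes of the family were called.

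Stimulated Rictor KO CD8+ cells were also set against stimulated Raptor KO CD8+ cells. In Rictor KO, 9 of 77 genes were higher (7 large, 2 small) and none lower, where 7% of all genes were higher and 8.3% lower (15.3% in all). The median log2 fold change was 0.31 (large 0.39, small 0.20), with -0.04 over all genes. The genes apart and higher numbered 27, 35.1% of the family, and none was apart and lower, where 16.1% and 17.6% of all genes were. Summed CPM in Rictor KO over Raptor KO was 1.27 for the large and 1.18 for the small subunit, without overlap. This comparison shares its Raptor KO libraries with that of Raptor KO and WT, so the 2 are not independent. All 3 Rictor KO libraries carry the library code StP219, while the Raptor KO libraries carry 3 different codes, so code and genotype are in part confounded. With the code as a term in the fit, 5 genes were higher, all large subunit, and Mrpl35 lost its call (0.67, edgeR adjusted p = 0.0582).

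Mrpl34 had 14.0, 16.5 and 11.1 CPM in Rictor KO and 10.0, 5.23 and 4.31 CPM in Raptor KO stimulated CD8+ cells, with all Rictor KO libraries above all Raptor KO libraries. Its log2 fold change was 1.21 ± 0.34 (SE; edgeR adjusted p = 0.0104), lost without Raptor KO library 2 (1.12) or 3 (0.96) or Rictor KO library 2 (1.06). Mrpl38 had 30.1, 28.1 and 31.8 CPM in Rictor KO and 18.4, 20.9 and 14.5 CPM in Raptor KO. These were apart, and the change of 0.75 ± 0.23 (SE; edgeR adjusted p = 0.0207) was lost without Raptor KO library 3 (0.60) or Rictor KO library 1 (0.75). Mrpl35 had 29.5, 28.9 and 31.3 CPM in Rictor KO and 13.4, 14.1 and 22.7 CPM in Raptor KO, with the Rictor KO libraries close together and above the others. Its change of 0.78 ± 0.25 (SE; edgeR adjusted p = 0.0274) held only without Raptor KO library 3; without Raptor KO library 1 or 2 or Rictor KO library 1, 2 or 3 it was 0.67, 0.65, 0.79, 0.81 and 0.75 and was not called.

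The remaining 6 were Mrpl22 (1.13), Mrpl1 (0.71), Mrpl4 (0.71), Mrpl37 (0.68), a mitochondria-specific large subunit protein, Mrps5 (0.67) and Mrps23 (0.55), values being log2 fold changes. The count of 9 fell to 4, 5 and 3 without Raptor KO library 1, 2 and 3 and to 3 and 2 without Rictor KO library 1 and 2.

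Between the subsets of WT cells no gene of the family passed the test. In resting cells CD8+ against CD4+ had a median log2 fold change of 0.08 and 3 genes at an unadjusted p under 0.05, where 3.33% of all genes passed (1.59% higher and 1.73% lower in CD8+). In stimulated cells the median was 0.03, with 2 genes at an unadjusted p under 0.05, where 5.18% of all genes passed (3.08% higher and 2.11% lower in CD8+). DESeq2 and limma-voom called 0 in both. Without WT CD4+ resting library 2, 1 gene was called in resting cells.

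The balance of the subunits, as the ratio of summed CPM of large over small subunit genes, moved little. It was 2.11 ± 0.186 in stimulated Rictor KO CD8+, 1.96 ± 0.0202 in stimulated Raptor KO CD8+ and 2.05 ± 0.0967 in stimulated WT CD8+ cells. Stimulated CD4+ cells had 1.92 ± 0.0988 in Raptor KO and 1.98 ± 0.0606 in WT. Resting cells had 1.81 ± 0.222 in Raptor KO CD8+, 1.84 ± 0.129 in WT CD8+, 1.83 ± 0.108 in Raptor KO CD4+ and 1.77 ± 0.0225 in WT CD4+ cells. On the log2 scale, stimulated minus resting cells differed by 0.12 in Raptor KO CD8+, 0.16 in WT CD8+, 0.07 in Raptor KO CD4+ and 0.16 in WT CD4+ cells. The libraries of the compared groups were apart in WT CD4+ cells only, among the 12 comparisons of the balance. Even that difference was 0.00085 when CPM were divided by exon length and 0.059 when Mrps30 and Mrps18a were counted as large subunit genes and Mrps36 was left out. Per kilobase the sign turned in Raptor KO cells, to -0.021 in CD8+ and -0.095 in CD4+, and by structure the CD4+ value was -0.022. Raptor KO minus WT was -0.06 in stimulated CD8+ and -0.04 in stimulated CD4+ cells, and Rictor KO minus WT was 0.04, all with overlap.

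RefSeq promoter windows were found for 69 of the 78 genes, 75 windows in all, and searched on both strands for 4 motifs of factors known to act on nuclear genes for mitochondria. CCGGAAG of ETS factors was in 34.7% of them (31.2% of large and 40.7% of small subunit windows), against 8.86% of all 32851 windows of the same length. AAGATGGC of YY1 was in 16.0%, against 2.75% of all windows. The palindromic motif of NRF1 was in 4.0%, against 0.971%, and CACGTG, the E-box bound by MYC, in 9.33%, against 7.15%. At least 1 of the 4 was in 54.7%, against 17.9% of all windows. Windows of cytosolic ribosomal protein genes held them in 34.7%, 10.7%, 2.67% and 10.7% for ETS, YY1, NRF1 and the E-box, and any of them in 54.7%. A match describes the letters of the window and shows no binding.

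Other gene families of the same machinery were counted from lists. Of all genes tested, stimulation raised 29.5% and lowered 26% in Raptor KO CD8+ and 32% and 30.8% in WT CD8+ cells. In CD4+ cells it raised 27.9% and lowered 24.1% in Raptor KO and 32.4% and 32.5% in WT. Between stimulated Raptor KO and WT, 6.3% were higher and 5.42% lower in CD8+ and 8.82% and 8.56% in CD4+ cells. The counts of these lists are to be read against such shares. The 5 mitochondrial ribosomal proteins outside the symbol rule rose with stimulation in part: 3 in Raptor KO CD8+, 5 in WT CD8+, 2 in Raptor KO CD4+ and 4 in WT CD4+ cells. Chchd1, a small subunit protein, changed by 1.81 ± 0.32 (SE; edgeR adjusted p = 5.11e-06) in WT CD8+ and 1.42 ± 0.30 (SE; edgeR adjusted p = 8.32e-05) in WT CD4+ cells. In stimulated Raptor KO against WT cells, Gadd45gip1, a large subunit protein, was lower in CD8+ cells at -1.38 ± 0.38 (SE; edgeR adjusted p = 0.0124), and none of the 5 passed in CD4+ cells. Dap3 and Chchd1 were higher in Rictor KO than in Raptor KO CD8+ cells, by 0.66 and 0.74 on the log2 scale.

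Factors that assemble the mitochondrial ribosome were called in shares near or below those of all genes. Of 24 tested, stimulation raised 6 and lowered 4 in Raptor KO CD8+, 5 and 4 in WT CD8+, 4 and 3 in Raptor KO CD4+, and 8 and 5 in WT CD4+ cells. In WT CD4+ cells that is 33.3% and 20.8%, against 32.4% and 32.5% of all genes, and in WT CD8+ cells 20.8% and 16.7%, against 32% and 30.8%. Ddx28, an RNA helicase of large subunit assembly, rose by 2.88 ± 0.48 (SE; edgeR adjusted p = 2.24e-06) in WT CD8+ and 2.61 ± 0.44 (SE; edgeR adjusted p = 2.08e-06) in WT CD4+ cells, while Nsun4, an RNA methyltransferase, changed by -1.22 ± 0.24 (SE; edgeR adjusted p = 2.01e-05) in WT CD4+ cells. Between Raptor KO and WT none of the 24 passed with edgeR in stimulated CD8+ or CD4+ cells, with 2 and 6 at an unadjusted p under 0.05.

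Of 13 tested translation factors, stimulation raised 5 and lowered 1 in Raptor KO CD8+, 7 and 2 in WT CD8+, 6 and 1 in Raptor KO CD4+, and 6 and 2 in WT CD4+ cells. The raised shares were 38.5%, 53.8%, 46.2% and 46.2%, against 29.5%, 32%, 27.9% and 32.4% of all genes. The lowered shares were 7.69%, 15.4%, 7.69% and 15.4%, against 26%, 30.8%, 24.1% and 32.5%. Among them the elongation factors Tsfm and Tufm rose in WT CD4+ cells by 2.48 and 2.04 on the log2 scale, and the initiation factor Mtif3 had -1.59 and was lower. Lrpprc, which stabilises mitochondrial messages, had 57.8, 69.0 and 68.6 CPM in Raptor KO and 107, 88.3 and 112 CPM in WT stimulated CD8+ cells, and 60.4, 54.5 and 56.7 CPM in Raptor KO and 91.5, 93.1 and 109 CPM in WT stimulated CD4+ cells. It was lower in Raptor KO in both subsets, at -0.65 ± 0.14 (SE; edgeR adjusted p = 0.00122) in CD8+ and -0.78 ± 0.14 (SE; edgeR adjusted p = 0.00012) in CD4+ cells. Taco1, a translational activator of cytochrome c oxidase subunit I, was lower in Raptor KO CD8+ cells at -1.65 ± 0.46 (SE; edgeR adjusted p = 0.0134) and the elongation factor Gfm1 in Raptor KO CD4+ cells at -0.76 ± 0.18 (SE; edgeR adjusted p = 0.00232).

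Of 17 mitochondrial tRNA synthetases, stimulation raised 3 and lowered 1 in Raptor KO CD8+, 3 and 3 in WT CD8+, 3 and 1 in Raptor KO CD4+, and 3 and 2 in WT CD4+ cells. These shares, 17.6% raised in each and 5.88%, 17.6%, 5.88% and 11.8% lowered, were below those of all genes. None of the 17 passed between Raptor KO and WT with edgeR in stimulated cells of either subset, and none had an unadjusted p under 0.05. Of 8 genes of mitochondrial transcription and replication, stimulation raised 2 and lowered 1 in Raptor KO CD8+, 2 and 3 in WT CD8+, 1 and 2 in Raptor KO CD4+, and 2 and 3 in WT CD4+ cells. The shares were 25%, 25%, 12.5% and 25% raised and 12.5%, 37.5%, 25% and 37.5% lowered. Polg, the catalytic subunit of the mitochondrial DNA polymerase, was higher in stimulated Raptor KO than WT cells, at 0.77 ± 0.17 (SE; edgeR adjusted p = 0.00121) in CD8+ and 0.53 ± 0.16 (SE; edgeR adjusted p = 0.014) in CD4+ cells. Of 8 tested genes of transcription factors that act on nuclear genes for mitochondria, stimulation raised 4 and lowered 3 in Raptor KO CD8+, 4 and 2 in WT CD8+, and 2 and 1 in Raptor KO CD4+ cells, and raised 3 in WT CD4+ cells. Here the shares were 50%, 50%, 25% and 37.5% raised and 37.5%, 25%, 12.5% and 0% lowered. Over all genes they were 29.5%, 32%, 27.9% and 32.4% raised and 26%, 30.8%, 24.1% and 32.5% lowered. Myc rose by 2.27 ± 0.29 (SE; edgeR adjusted p = 9.21e-07) in WT CD8+ and 2.39 ± 0.29 (SE; edgeR adjusted p = 4.99e-07) in WT CD4+ cells. It was 0.57 (edgeR adjusted p = 0.18) in CD8+ and 0.23 (edgeR adjusted p = 0.59) in CD4+ cells between stimulated Raptor KO and WT, and none of the 8 passed there with edgeR, with 2 and 1 at an unadjusted p under 0.05.

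Cytosolic ribosomal protein genes had positive medians between stimulated Raptor KO and WT cells. Of 78 tested, 12 were higher and none lower in CD8+ cells and 17 higher and 2 lower in CD4+ cells, with medians of 0.32 and 0.28 on the log2 scale. That is 15.4% higher in CD8+ and 21.8% higher and 2.56% lower in CD4+ cells. Among all genes tested, 6.3% were higher and 5.42% lower in CD8+ and 8.82% and 8.56% in CD4+ cells. Of 73 nuclear-encoded respiratory chain subunits, 1 was higher and 11 lower in CD8+ cells and 1 higher and 14 lower in CD4+ cells, with medians of -0.17 and -0.30. That is 1.37% higher in each subset and 15.1% lower in CD8+ and 19.2% lower in CD4+ cells, against the same shares of all genes. Of 8 tested protein-coding genes of the mitochondrial genome, 1 was higher in CD8+ cells and none was called in CD4+ cells with edgeR. At an unadjusted p under 0.05 there were 6 in CD8+ and 1 in CD4+ cells. All 8 had positive log2 fold changes in both subsets, with medians of 0.75 and 0.46. The difference between these families and the mitochondrial ribosomal proteins was not tested. With stimulation, the medians of the cytosolic ribosomal protein genes were 0.67 in Raptor KO CD8+, 0.39 in WT CD8+, 0.60 in Raptor KO CD4+ and 0.65 in WT CD4+ cells, and those of the respiratory chain subunits 0.99, 1.14, 0.93 and 1.28.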

How the data were processed

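RNA of 27 libraries was analysed. The aligner was STAR 2.6.0a and the genome build GRCm38, per the submitters' processing notes. Which program counted reads, with which annotation and strand setting, was not stated in the labels. The authors deposited 1 table of raw counts per gene. Symbols, biotypes and coordinates came from GENCODE annotation of GRCm38 (26753 of 26802 gene IDs matched, 49 not), promoter windows from RefSeq. Replicate libraries differed beyond counting error (chi-square per degree of freedom 2.68 to 49.3).

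Rn45s was left out, genes with low counts were filtered by group (minimum count 10, minimum total 15), and TMM scaling and robust quasi-likelihood F tests of edgeR 4.0.16 (R 4.3.3) were run over all libraries with 1 mean per group. P-values were adjusted by Benjamini-Hochberg over 10493 genes. Counts of the family and of lists at an unadjusted p under 0.05 mostly stand without the share over all genes. They are therefore not read as results about the family. CPM are counts per 1000000 of the scaled total over tested genes. The common biological coefficient of variation was 0.187. Group sums are mean ± SD with no test. Scripts were tested on simulated counts with known changes in stimulated Raptor KO CD4+ cells. Against WT, 8.6% of 1.5-fold and 52.2% of 2-fold changes were recovered, with 0 false calls.

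Named genes were the 3 largest and 3 smallest log2 fold changes per comparison among called genes of at least 10 CPM on average, called genes that moved opposite to most, and 12 genes fixed by role. Genes, lists and the naming rule were chosen with earlier results of these data known. Library codes follow numbers 1 to 3 outside Rictor KO and were not used to pair the libraries. Every same-number correlation was over 0.1 in 0 of 10 comparisons, which cannot exclude an effect of the code. Correlations ran from -0.0202 to 0.367, the highest for number 3 of stimulated WT CD8+ and CD4+ cells. With the code as a block, calls over all genes went from 1230 to 1546 in stimulated Raptor KO against WT CD8+ cells. In CD4+ cells they went from 1823 to 2121, and for Rictor KO against Raptor KO from 1606 to 1563. Alternatives were median-ratio size factors, Rn45s kept, no low-count filter, a stricter one (5 CPM, 3 libraries), DESeq2 1.42.0, limma 3.58.1 (voom), only the compared groups, a minimum fold change of 1.5, protein-coding genes alone, the library code as a block, and each library left out; for the subunit balance, mean log2(CPM + 1), CPM per kilobase and assignment by structure.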

Additional observations from a re-analysis of the deposited data

Results flagged for a closer look

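The stimulation effect on Mrps23 differed between Raptor KO and WT CD4+ cells by the test of the difference itself. It was -1.15 on the log2 scale for Raptor KO minus WT (SE 0.32, edgeR adjusted p = 0.022), from 0.71 in Raptor KO and 1.86 in WT cells. Resting levels overlapped between the genotypes (10.7, 15.0 and 13.3 CPM in Raptor KO, 11.1, 12.9 and 10.3 CPM in WT), and stimulated levels did not (23.4, 15.8 and 24.1 CPM in Raptor KO, 36.3, 38.8 and 47.3 CPM in WT). It was the 1 gene of 77 with such a difference, 1.3% of the family, where 5.82% of all genes differed and 2.25% had a smaller effect in Raptor KO. The call was lost in 4 of 12 fits that left out 1 library (largest edgeR adjusted p = 0.0948), with Rn45s kept in the totals and with a minimum fold change of 1.5. In CD8+ cells the same difference was -0.30 (edgeR adjusted p = 0.743).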

How the results depend on the processing

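Of 3139 alternative values for named genes, 3015 kept direction and side of the threshold, 97 lost and 26 gained the threshold, and 1 reversed: Mrpl24 with stimulation in WT CD8+ cells, 0.060 with Rn45s kept in the totals. Causes were not tested. Counts of called genes in stimulated Raptor KO against WT CD8+ cells (5) became 8 with median-ratio size factors, limma-voom, protein-coding genes alone or the replicate block, 3 with Rn45s kept, DESeq2 or only the compared groups, and 0 with a minimum fold change of 1.5, which also gave 0 in CD4+ cells (9), 0 for Rictor KO against Raptor KO (9), 0 for the difference of stimulation effects in CD4+ cells (1), 15 for stimulation in Raptor KO CD4+ cells (34) and 22 in Raptor KO CD8+ cells (38). With Rn45s kept, Raptor KO CD4+ stimulation gave 11, Rictor KO against Raptor KO 2 and the CD4+ difference 0. That difference gave 2 with median-ratio factors, no filter, limma-voom or protein-coding genes, and the CD8+ difference (0) gave 1 with median-ratio factors or protein-coding genes.

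With the replicate block (library code), the CD4+ and CD8+ differences gave 3 and 1 genes and Rictor KO against Raptor KO 5, and Mrps18b passed for the CD8+ difference (-1.49, edgeR adjusted p = 0.0405) and for stimulated Raptor KO against WT CD4+ cells (-0.72, edgeR adjusted p = 0.0378). Stimulation gave 39 in Raptor KO CD8+, 52 in WT CD8+, 33 in Raptor KO CD4+ and 56 in WT CD4+ cells, and stimulated Raptor KO against WT CD4+ cells 13. Same-number correlations were -0.0202 to 0.367, and in 1 of 10 comparisons each library correlated best with its own number.

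Leaving out 1 library gave 32 to 38 (Raptor KO CD8+), 45 to 50 (WT CD8+), 21 to 34 (Raptor KO CD4+) and 48 to 56 (WT CD4+) genes for stimulation, 1 to 7 (CD8+) and 2 to 12 (CD4+) for stimulated Raptor KO against WT, 2 to 7 for Rictor KO against Raptor KO, 0 to 1 (CD8+) and 0 to 2 (CD4+) for the differences, 0 to 1 for resting CD8+ against CD4+ cells, and 0 for the rest.

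The log2 subunit balance with stimulation in WT CD4+ cells (0.16) was 0.10 as mean log2(CPM + 1), 0.00085 per kilobase and 0.059 by structure. Per kilobase it was -0.021 in Raptor KO CD8+ and -0.095 in Raptor KO CD4+ cells (by structure -0.022), -0.11 for stimulated Raptor KO against WT CD4+ cells and -0.041 for resting CD8+ against CD4+ cells. Without 1 library it was 0.04 to 0.22 (Raptor KO CD8+), 0.12 to 0.21 (WT CD8+), 0.02 to 0.11 (Raptor KO CD4+) and 0.13 to 0.18 (WT CD4+) with stimulation. For Raptor KO against WT it was -0.10 to -0.03 (stimulated CD8+), -0.07 to -0.0011 (stimulated CD4+), -0.12 to 0.05 (resting CD8+) and 0.01 to 0.10 (resting CD4+), for Rictor KO -0.03 to 0.09 against WT and 0.04 to 0.16 against Raptor KO, and for CD8+ against CD4+ cells -0.0055 to 0.08 at rest and 0.01 to 0.08 stimulated.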
